A study of Arabidopsis thaliana with 4 samples.

Results

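The genes described here are the 3 CBF transcription factor genes of *Arabidopsis thaliana*, namely *CBF1* (AT4G25490), *CBF2* (AT4G25470) and *CBF3* (AT4G25480), and the related factor gene *DREB2A* (AT5G05410). With them stand 6 genes known for induction by cold, namely *COR15A* (AT2G42540), *COR15B* (AT2G42530), *KIN1* (AT5G15960), *KIN2* (AT5G15970), *COR47* (AT1G20440) and *RD29A* (AT5G52310). They were taken by locus from a table of 32878 rows, of which 27735 name a single locus. All 10 loci were found, in 11 rows, since *CBF2* had 2 rows and no locus was merged with a neighbour. RNA sequencing was done on whole seedlings of the *daz3 tree1* double mutant, made in the Columbia background. The ethylene group consisted of seedlings grown in darkness for 3 days at 24 °C that then received 10 ppm ethylene in hydrocarbon-free air for 4 hours, and the air group received the same air without ethylene. There were 2 libraries with ethylene and 2 with air. Both groups carry the *daz3* and *tree1* mutations, whose alleles the labels do not give, and wild-type seedlings were not analysed here. The series asks what TREE1 does in ethylene signalling, and the comparison shows how the mutant responded.

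CBF proteins, also called DREB1, are AP2-domain factors that are induced within a short time of cold. They bind the CRT/DRE element in the promoters of *COR* (cold-regulated), *KIN* and *RD29* genes, whose products help to protect membranes and proteins when cells lose water. DREB2A binds the same element and is known for responses to drought and heat. The ethylene signalling factor EIN3 is known to bind *CBF* promoters and to repress these genes, and phytochrome interacting factors and the circadian clock also act on them.

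The values are the authors' FPKM (fragments scaled to transcript length and library size), with 1 value per group and no SD. The number of reads per library is unknown. A gene was called when its p-value, adjusted by the Benjamini-Hochberg method over the 18696 tested named rows, was under 0.05. The 95% intervals were implied from the deposited p-values of the authors' test. Whether each library had its own seedling culture is not in the labels, and the p-values may therefore measure technical spread only. In whole seedlings, fewer cells that express a gene and less RNA per cell cannot be told apart.

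The mutated genes and seedling markers were examined first. *TREE1* was listed at 0.327 FPKM with ethylene and at 0 in air, and *DAZ3* at 0 with ethylene and in air. A listed 0 can be a failed estimate, and with no wild type these levels do not separate a mutation from genes that are normally low. The 4 listed seedling markers were present. *PORA*, a protochlorophyllide reductase gene abundant in darkness, had 1147 FPKM with ethylene and 1873 FPKM in air and was called lower. The root and hypocotyl gene *PYK10* had 3868 FPKM with ethylene and 4093 FPKM in air, and the apical hook gene *HLS1* had 35.7 FPKM with ethylene and 35.8 FPKM in air. The cotyledon gene *RBCS1A* had 13205 FPKM with ethylene and 12576 FPKM in air, and *PORA* was the only one of the 4 markers that was called.

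The promoters of 4 of the genes are shown. That of *RD29A* holds the CRT/DRE core, *CBF2* is the gene called higher, and *KIN1* and *KIN2* are adjacent copies of which *KIN1* alone was called. Each sequence is the 250 bases before the annotated gene start in the RefSeq annotation of TAIR10.1, written 5′ to 3′ on the strand of the gene. Capitals mark matches on either strand to CCGAC (the core of CRT/DRE), ACGTG (the core of the abscisic acid response element, ABRE), AATATCT (the core of the evening element, bound by clock factors) and CGCG (the core bound by CAMTA factors). The *CBF2* promoter is chr4:13016236-13016485 on the minus strand, that of *KIN1* is chr5:5209467-5209716 on the plus strand, that of *KIN2* is chr5:5211469-5211718 on the plus strand, and that of *RD29A* is chr5:21240467-21240716 on the plus strand.
CBF2: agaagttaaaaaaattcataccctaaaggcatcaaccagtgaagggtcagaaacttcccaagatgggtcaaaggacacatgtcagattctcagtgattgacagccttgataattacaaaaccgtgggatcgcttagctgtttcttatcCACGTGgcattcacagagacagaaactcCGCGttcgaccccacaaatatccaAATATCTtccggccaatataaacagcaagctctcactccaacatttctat
KIN1: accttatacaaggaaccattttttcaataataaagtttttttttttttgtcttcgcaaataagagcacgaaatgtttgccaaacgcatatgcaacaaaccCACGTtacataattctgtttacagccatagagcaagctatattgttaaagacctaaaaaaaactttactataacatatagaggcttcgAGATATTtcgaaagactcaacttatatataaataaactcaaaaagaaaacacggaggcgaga
KIN2: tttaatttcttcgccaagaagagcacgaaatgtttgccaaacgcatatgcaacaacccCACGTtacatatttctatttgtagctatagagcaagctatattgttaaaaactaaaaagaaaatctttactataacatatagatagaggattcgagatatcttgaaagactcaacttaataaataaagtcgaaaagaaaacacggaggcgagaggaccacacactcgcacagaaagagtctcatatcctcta
RD29A: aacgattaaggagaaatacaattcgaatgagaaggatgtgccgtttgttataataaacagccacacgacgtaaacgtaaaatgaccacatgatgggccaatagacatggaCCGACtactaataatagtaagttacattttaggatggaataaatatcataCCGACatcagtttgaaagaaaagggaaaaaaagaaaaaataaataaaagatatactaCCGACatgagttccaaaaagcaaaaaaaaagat

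The CRT/DRE core stands 3 times in the *RD29A* promoter and in neither *KIN* promoter. In *CBF2* the ABRE core is read on both strands of 1 palindrome, with a CAMTA core and an evening element closer to the gene. The *KIN1* and *KIN2* promoters aligned over 205 bases with 90.2% identity, and each holds 1 ABRE core. An evening element core was found before *KIN1* and not before *KIN2*.

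Across the genes, *COR15B* was left out of the motif counts because 243 of the 250 bases before it lie in its neighbour *COR15A*. Of the other 9 promoters, 4 held the evening element core, among them those of all 3 *CBF* genes. The same core was found in 10.0% of 27443 promoters of protein-coding genes, in 15.1% of 371 promoters of genes called higher and in 8.34% of 731 promoters of genes called lower. The CRT/DRE core was found in 2 of the 9 promoters, *RD29A* and *COR15A*. It stood in 11.97% of all promoters, 14.6% of those called higher and 14.5% of those called lower. The ABRE core was found in 5 of 9, and in 22.9% of all promoters, 30.7% of those called higher and 24.4% of those called lower. The CAMTA core was found in 1 of 9, and in 10.14% of all promoters, 10.2% of those called higher and 10.7% of those called lower. The letters ATGTA, part of sites bound by EIN3, were in 6 of 9, and in 52.05% of all promoters, 55.8% of those called higher and 49.4% of those called lower. Such matches are a description of these windows.

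**Figure D1:**
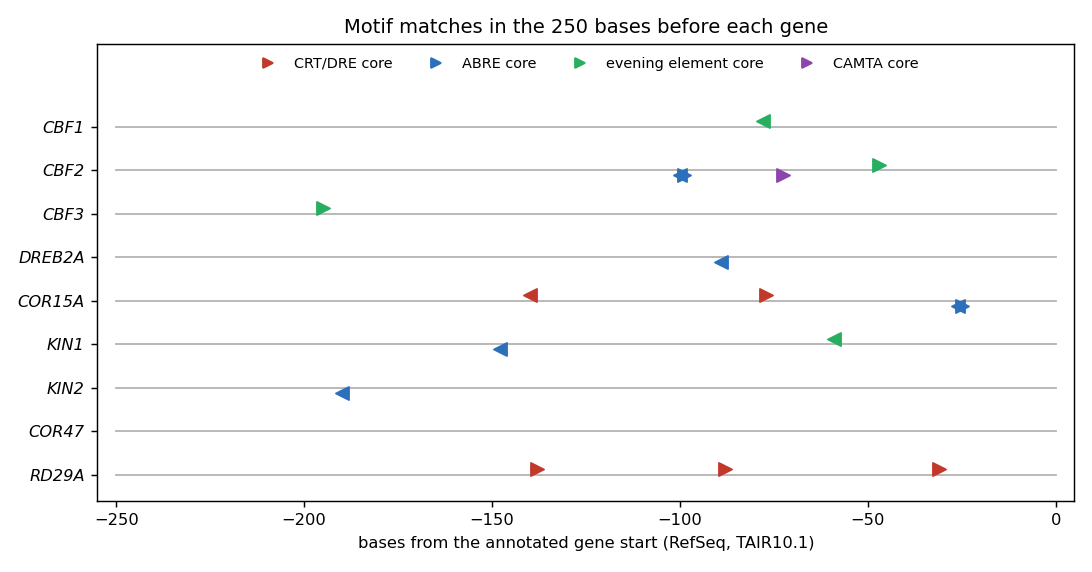
Matches to 4 motif cores in the 250 bases before the annotated start of 9 genes. The horizontal axis is the distance in bases from the gene start and each triangle is a match, pointing right on the strand of the gene and left on the opposite strand. *RD29A* has 3 CRT/DRE cores and *COR15A* has 2, each *CBF* gene has 1 evening element core, and *COR47* has none of the 4.

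Ethylene was accompanied by a rise of *CBF2* and by falls of *KIN1*, *COR47* and *RD29A*. Of the 10 tested rows, 1 was called higher, 3 were called lower and 6 were not called. Among all tested rows 2.17% were called higher and 4.18% lower, so the 3 lower calls stand above the background share, while the higher call is a single row. Their median log2 fold change was 0.42, against -0.02 over all tested rows, with both rows of *CBF2* counted. This median was 0.31 over the rows with at least 1 FPKM in a group, 0.21 with a pseudocount of 1 FPKM and 0.17 when scaled to the reference genes. These 4 calls and their directions held when the values were centred on all tested rows and when they were scaled to the reference genes. The second scaling matters for the table as a whole, because the median of the 11 tested reference genes was 0.25 on the log2 scale. It turned 405 higher and 781 lower calls into 114 higher and 2728 lower calls and moved the median of all tested rows to -0.28. Changes below are on the deposited scale.

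**Figure D2:**
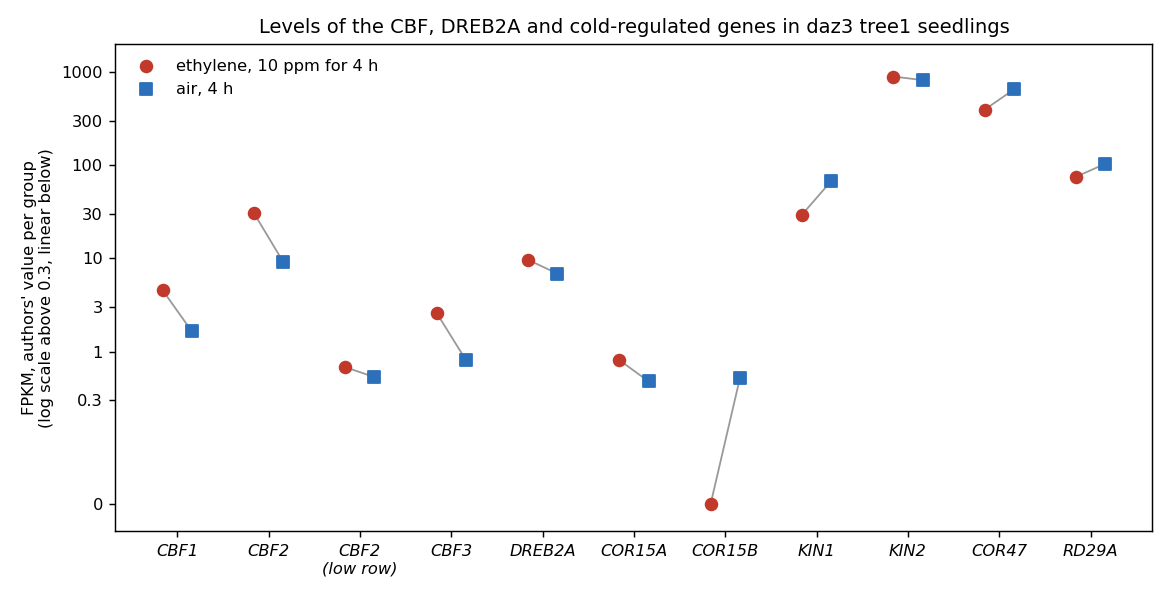
FPKM of each gene with ethylene (red circles) and in air (blue squares), on an axis that is logarithmic above 0.3 FPKM and linear below. Each point is the authors' value for a group of 2 libraries, with no error. The *CBF* genes and *DREB2A* lie under 31 FPKM, *KIN2* and *COR47* lie at 395 FPKM or more, and *COR15B* is listed at 0 with ethylene.

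Among the transcription factors, *CBF2*, also known as *DREB1C*, was the most abundant and the only one called. It had 30.7 FPKM with ethylene and 9.19 FPKM in air, which is 3.34-fold higher (log2 fold change 1.74, adjusted p = 0.00227 from the authors' p-values). Its p in the authors' deposited table was the smallest that occurs, 5e-05, so its interval, 0.90 to 2.58, is an upper limit of the true width. Its level stood at percentile 73.5 of all tested rows with ethylene and at percentile 41.2 in air.

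*CBF2* also had a second row with 0.680 FPKM with ethylene and 0.532 FPKM in air. That row was not called, and its interval ran from -3.62 to 4.33. *CBF2* lies on the minus strand, and the single-locus rows within 50 rows of its higher row were 90 loci of the minus strand and 0 of the plus strand. Around the second row, 94 of 96 such loci lie on the plus strand. The table does not say which transcripts the second row counts. The sum of both rows was 31.4 FPKM with ethylene and 9.73 FPKM in air, a 3.22-fold difference.

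*CBF1*, or *DREB1B*, had 4.57 FPKM with ethylene and 1.65 FPKM in air. Its log2 fold change was 1.47 with an interval of 0.05 to 2.89, and it was not called (adjusted p = 0.245 from the authors' p-values). *CBF3*, or *DREB1A*, had 2.60 FPKM with ethylene and 0.812 FPKM in air. Its log2 fold change of 1.68 had an interval of -0.32 to 3.68, and it was not called (adjusted p = 0.382 from the authors' p-values). At these low levels the intervals of *CBF1* and *CBF3* hold the value of *CBF2* and values near 0, so the data do not resolve whether these 2 genes moved with *CBF2*.

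The ratios between the *CBF* genes were close in both groups. *CBF2* had 6.71 times the FPKM of *CBF1* with ethylene and 5.57 times in air, and 11.8 times that of *CBF3* with ethylene and 11.3 times in air. The 3 genes stand in a row on chromosome 4, all on the minus strand with no protein-coding gene between them. Their coding sequences are between 87.3% and 87.5% identical, with shared runs of up to 68 bases, so reads may have been split between them in the authors' counting. Together, the 4 *CBF* rows summed to 38.5 FPKM with ethylene and 12.2 FPKM in air.

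*DREB2A* had 9.65 FPKM with ethylene and 6.88 FPKM in air. Its log2 fold change was 0.49, with an interval from -0.19 to 1.17, and it was not called (adjusted p = 0.475 from the authors' p-values). Increases above 1.17 on the log2 scale lie outside that interval.

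**Figure D3:**
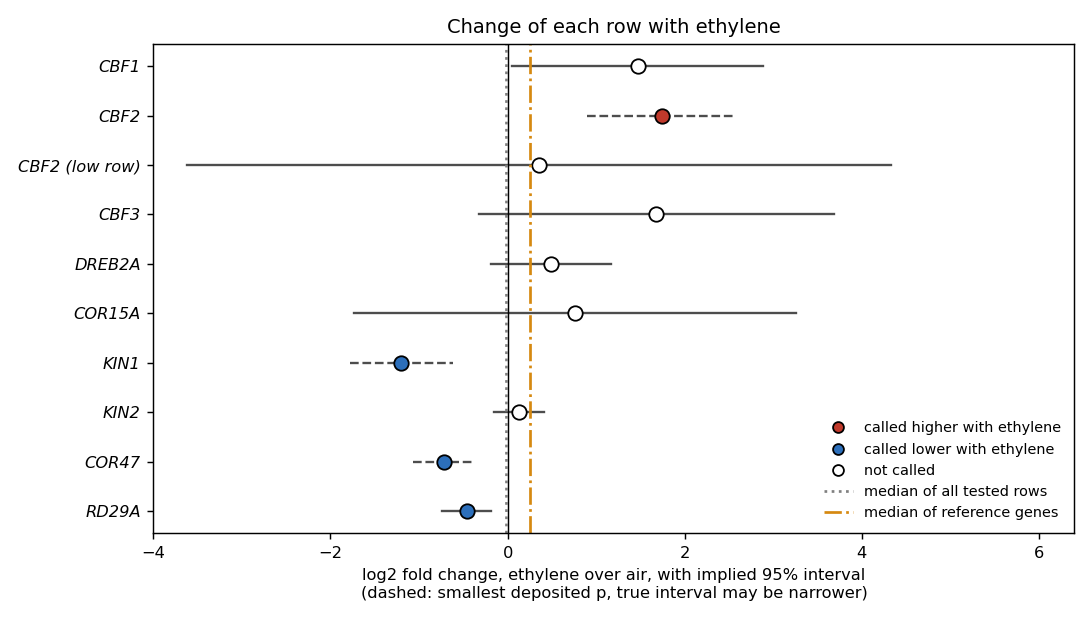
Log2 fold change of ethylene over air for the 10 tested rows, with the 95% interval implied by the deposited p. Dashed intervals belong to rows at the smallest p and may be narrower. *KIN1*, *COR47* and *RD29A* lie below 0 with intervals that exclude it, *CBF2* lies above 0, and *KIN2* lies near 0 with a narrow interval.

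The cold-regulated genes differed widely in level. Of these 6 genes, 3 were called lower, 0 higher, 2 were not called and 1 was not tested. Over all tested rows 4.18% were called lower and 2.17% higher. With the filter at 5 FPKM these shares were 5.73% lower and 3.29% higher. *KIN2*, also called *COR6.6*, and *COR47* made up most of the RNA of the group. *KIN2* held 62.0% of the summed FPKM of all 11 rows with ethylene and 49.3% in air, and *COR47* held 27.4% with ethylene and 39.2% in air. By level with ethylene the order was *KIN2*, *COR47*, *RD29A*, *KIN1*, *COR15A* and *COR15B*, and in air only the last 2 changed places, both under 1 FPKM. With 1 value per group, the spread around this order could not be measured.

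*KIN1* encodes a small hydrophilic protein that is known for induction by cold and abscisic acid. It had 29.4 FPKM with ethylene and 67.8 FPKM in air. Its fall of 2.30-fold was the largest decrease among the 10 rows (log2 fold change -1.20, adjusted p = 0.00227 from the authors' p-values, interval at most -1.79 to -0.62).

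*KIN2*, the adjacent copy of *KIN1*, had 894 FPKM with ethylene and 819.6 FPKM in air. Its log2 fold change of 0.13 was not called (adjusted p = 0.697 from the authors' p-values), its interval ran from -0.16 to 0.41, and the sign turned to -0.13 when scaled to the reference genes. The intervals of *KIN1* and *KIN2* did not overlap, although the difference between the genes was not tested. *KIN2* had 30.4 times the FPKM of *KIN1* with ethylene and 12.1 times in air.

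The coding sequences of *KIN1* and *KIN2* are 95.02% identical over 201 bases and share a run of 58 bases. Reads of 1 copy may therefore have been given to the other. The sum of both was 923 FPKM with ethylene and 887 FPKM in air. *KIN2* makes up most of that sum, so it cannot show whether *KIN1* changed.

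*COR47*, a dehydrin gene, fell to 395 FPKM with ethylene, against 651 FPKM in air (log2 fold change -0.72, adjusted p = 0.00227 from the authors' p-values, interval at most -1.07 to -0.37). *RD29A*, also known as *COR78*, encodes a hydrophilic stress protein and is widely used as a reporter of CRT/DRE activity. It fell to 75.2 FPKM with ethylene, against 103.6 FPKM in air (log2 fold change -0.46, adjusted p = 0.0253 from the authors' p-values, interval -0.74 to -0.18). Both were among the more abundant genes of the table. *COR47* stood at percentile 98.2 with ethylene and 99.2 in air, and *RD29A* at percentile 88.3 with ethylene and 91.7 in air. The *RD29A* call was lost at an adjusted threshold of 0.01.

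*COR15A* and *COR15B* encode chloroplast proteins that are known to stabilise membranes during freezing. *COR15A* had 0.810 FPKM with ethylene and 0.479 FPKM in air, and it was not called. Its interval, -1.74 to 3.25 on the log2 scale, excludes few sizes of change. *COR15B* was listed at 0 with ethylene and had 0.517 FPKM in air, and it was not tested. *COR15A* stood at percentile 5.51 of all tested rows with ethylene and 1.94 in air, while *KIN2* stood at percentile 99.5 in both groups.

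The adjacent relatives of 2 of the genes that fell were examined next. *ERD10*, a dehydrin gene that lies beside *COR47* on chromosome 1, fell to 89.1 FPKM with ethylene, against 161 FPKM in air (log2 fold change -0.85, adjusted p = 0.00227 from the authors' p-values). *COR47* had 4.43 times the FPKM of *ERD10* with ethylene and 4.04 times in air. The 2 coding sequences are 82.3% identical. *RD29B*, beside *RD29A* on chromosome 5, named after its value was seen and known mainly for induction through abscisic acid, had 41.4 FPKM with ethylene and 55.5 FPKM in air. Its log2 fold change of -0.42, with an interval from -0.72 to -0.13, was not called on the deposited scale (adjusted p = 0.0682 from the authors' p-values), but it passed as lower after scaling to the reference genes.

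Among 8 dehydrin and dehydration-responsive genes, 3 were called lower, 0 higher, and 5 did not pass, against 4.18% lower and 2.17% higher over all tested rows. The median log2 fold change of these 8 genes was -0.42, against -0.02 over all tested rows. Beside *ERD10*, the dehydrin genes *LTI30* and *ERD14* fell. *LTI30* had 10.8 FPKM with ethylene and 32.8 FPKM in air, a 3.02-fold decrease. The 250 bases before *LTI30* hold 3 CRT/DRE cores, while the same windows before *ERD10* and *ERD14* hold none. *ERD14* had 711 FPKM with ethylene and 953.6 FPKM in air, and its call was lost when values were centred on all tested rows.

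Among 12 other genes listed as cold-induced, 2 were called higher, 0 lower and 10 did not pass, with a median of 0.14. The shares over all tested rows were 2.17% higher and 4.18% lower. *GRP7*, which encodes an RNA-binding protein under clock control, rose 1.97-fold, with 1622 FPKM with ethylene and 824 FPKM in air. *RCI2A*, a gene for a small membrane protein, rose 1.41-fold, with 696 FPKM with ethylene and 494 FPKM in air, and it did not pass after scaling to the reference genes. The membrane protein gene *COR413-PM1*, named after its value was seen, had 645 FPKM with ethylene and 511 FPKM in air and was not called.

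**Figure D4:**
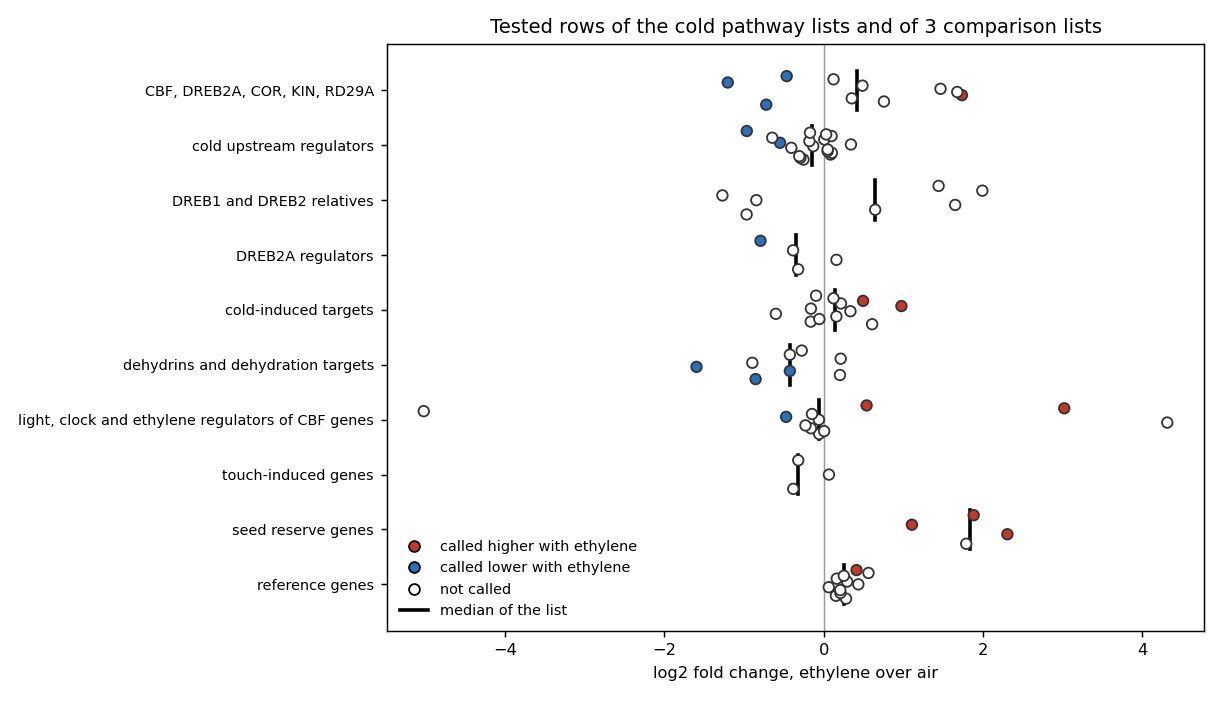
Log2 fold change of ethylene over air for the tested rows of the 10 genes, of 6 cold pathway lists and of 3 comparison lists. Each point is a row, filled red or blue where it was called higher or lower, and black bars are list medians. The dehydrin list has a median of -0.42 and the seed reserve list a median of 1.84.

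Among 18 tested genes listed as regulators of cold responses, 2 were called lower and 0 higher, against 4.18% lower and 2.17% higher over all tested rows. The median of these 18 was -0.15. *HOS15*, which encodes a repeat protein of a chromatin complex and is known to act on *COR* genes, fell to 10.6 FPKM with ethylene, against 20.7 FPKM in air (log2 fold change -0.96). *OST1*, a protein kinase gene of abscisic acid and cold signalling, fell to 33.3 FPKM with ethylene, against 48.7 FPKM in air (log2 fold change -0.55), a call lost when values were centred on all tested rows. *ICE1*, a direct activator of *CBF3* and named after its value was seen, had 42.1 FPKM with ethylene and 40.6 FPKM in air, with an interval of -0.26 to 0.37.

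Among regulators of DREB2A, *GRF7*, which encodes a growth-regulating factor that represses *DREB2A*, was the only one of 4 that was called, and the median of these 4 was -0.35. It fell to 87.4 FPKM with ethylene, against 151 FPKM in air (log2 fold change -0.79). The share called lower over all tested rows was 4.18%. Of 7 tested relatives of the CBF and DREB2 factors, with a median of 0.65, 0 were called in either direction. Of these 7, 0 had an unadjusted p under 0.05 in the authors' deposited table. Over all tested rows 18.8% had such a p, 2.17% were called higher and 4.18% lower. With so few rows, these counts do not show that the relatives were unchanged. The 2 relatives with the highest levels were AT1G75490, with 7.81 FPKM with ethylene and 4.98 FPKM in air, and *CBF4*, with 3.12 FPKM with ethylene and 1.15 FPKM in air.

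Among light, clock and ethylene regulators that are known to act on *CBF* genes, 2 of 11 tested rows were called higher and 1 lower, with a median of -0.06. Over all tested rows the shares were 2.17% higher and 4.18% lower. *EIN3* was the gene called lower, with 58.4 FPKM with ethylene and 80.9 FPKM in air (log2 fold change -0.47, interval -0.76 to -0.18). This call was lost at an adjusted threshold of 0.01. The EIN3 protein was not measured, and a link to the *CBF2* values was not tested. The clock gene *TOC1* rose to 32.04 FPKM with ethylene, against 22.03 FPKM in air, but not after scaling to the reference genes. A row of *PRR5*, a clock regulator gene, was called higher, at 8.02 FPKM with ethylene and 0.987 FPKM in air, while its second row had 0.0908 FPKM with ethylene and 2.95 FPKM in air and was not called. *LHY* and *HY5* lay in rows merged with a neighbouring gene and were not counted. The row with *HY5* was called higher, at 88.2 FPKM with ethylene and 24.5 FPKM in air, and the row with *LHY* was not called.

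Of 4 tested seed reserve genes, a class known to respond to abscisic acid, 3 were called higher and 0 lower, with a median log2 fold change of 1.84. All tested rows had shares of 2.17% higher and 4.18% lower. The storage protein gene *CRA1* had 43.6 FPKM with ethylene and 11.8 FPKM in air, *CRC* had 5.04 FPKM with ethylene and 1.02 FPKM in air, and the oil body gene *OLEO2* had 73.5 FPKM with ethylene and 34.1 FPKM in air. The *CRC* call was lost at an adjusted threshold of 0.01. Of 3 touch-induced genes, which respond to handling, 0 were called in either direction, and the median was -0.32. Of these 3, 0 had an unadjusted p under 0.05 in the authors' deposited table, against 18.8% over all tested rows. With so few rows, these counts do not show that the touch-induced genes were unchanged. *TCH2* had 107.8 FPKM with ethylene and 102.9 FPKM in air, and *TCH3* had 29.5 FPKM with ethylene and 38.3 FPKM in air, which passed as lower after scaling to the reference genes. The part of these genes in the values of the *CBF* and *COR* genes was not tested.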

How the data were processed

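The submitters' processing notes name TopHat2 2.0.9, Cuffdiff 2.0.1 and the genome build TAIR10, and the settings of both tools were not stated. The deposited table holds 1 value per group, taken as the authors' FPKM because Cuffdiff is named, an unadjusted p-value, and a log2 fold change, which the values show to be ethylene over air. That fold was recomputed, and it matched within 0.001 in 19947 of the 19948 rows with 2 values above 0. The depth of each library is unknown.

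Adjustment was made by the Benjamini-Hochberg method over 18696 named rows with a deposited p-value below 1. The 243 rows without a gene name, with 88.9% of the ethylene sum and 86.0% of the air sum of FPKM, stayed out. The largest deposited p that passed was 0.00315. A standard error was implied from each p under a normal approximation, and it is an upper limit for 411 rows at the smallest p. The calculation was tested on simulated data.

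The genes, lists and tests were chosen with earlier results of these data known. The rule named all 10 genes, up to 5 called genes of every list and, where none was called, the 2 with the highest level. *COR413-PM1*, *ICE1* and *RD29B* were named outside it, after their values were seen. The mutated genes and the listed seedling markers are given as checks, and *LHY* and *HY5* as listed loci in merged rows. Of 100 listed loci, all were in the TAIR10.1 reference and 91 symbols were found there. Promoters came from RefSeq TAIR10.1. Of the reference gene list, AT5G60390 was called higher. The software was Biopython 1.88, matplotlib 3.10.9, numpy 2.4.6, pandas 2.3.3 and scipy 1.17.1 under Python 3.11.15.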

Additional observations from a re-analysis of the deposited data

How the results depend on the processing

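No paired analysis was possible because the deposited table has 1 value per group, and for the same reason no library could be left out. The alternatives were thresholds of 0.01 and 0.10, filters at 1 and 5 FPKM, single-locus rows, all named rows, pseudocounts of 0.1 and 1 FPKM, scaling to the reference genes and centring on all tested rows, with the sum of both *CBF2* rows added after seeing the data. In every adjustment and scaling *CBF2*, *KIN1* and *COR47* kept their calls. *RD29A* kept its call except at 0.01, where its adjusted p of 0.0253 (Benjamini-Hochberg, log2 fold change -0.46) did not pass, and its adjusted p over the alternatives ran from 3.61e-05 to 0.0441. The median log2 fold change of the 10 rows ranged from 0.17, scaled to the reference genes, to 0.44, centred on all tested rows. In the 6 cold pathway lists 4 of 60 tested rows were called higher and 7 lower, against 2.17% higher and 4.18% lower over all tested rows. These counts were 2 higher and 4 lower at 0.01, against 1.02% and 2.19% over all tested rows. The calls lost at 0.01 were those of *RCI2A*, *TOC1*, *EIN3*, *ERD14* and *OST1*. Scaling to the reference genes, which lowers every log2 value by 0.25, gave 2 higher and 14 lower. With that scaling the shares over all tested rows were 0.61% higher and 14.6% lower. Low levels limit *CBF1*, *CBF3*, *COR15A* and *COR15B*, and the p-values cannot show the spread between seedling cultures.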
